A study of Homo sapiens with 30 samples.

Results

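The comparison set 6 arrays of cells given 2.5 cGy against 6 arrays of cells given 1 cGy, in the lymphoblastoid lines GM15510 and GM15036, out of 30 arrays in the series. Members were the arrays whose titles name these doses, and each line contributed 3 arrays at each dose. Lymphoblastoid lines are human B cells immortalised with Epstein-Barr virus, so neither line is a primary B cell and each line stands for 1 donor. The 4 groups were GM15510 at 2.5 cGy, GM15510 at 1 cGy, GM15036 at 2.5 cGy and GM15036 at 1 cGy. What they share is exposure to a caesium source, suspension culture in serum-containing MEM and Qiagen total RNA. Doses are in cGy as the samples are labelled, although the series' design text writes them in Gy. No unirradiated cells were analysed here, so a response already complete at 1 cGy cannot be seen, and how long after exposure the cells were collected is not stated in the labels. Whether a group's 3 arrays stem from different cultures is not stated, so p-values cover array-to-array spread alone, and this may be technical.

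Ionising radiation breaks DNA, and the sensor kinases ATM, ATR and DNA-PK signal the breaks to the transcription factor p53. p53 then switches on genes for cell cycle arrest, repair and its own negative control. B lymphoblasts also make membrane and secreted proteins in quantity, which enter the endoplasmic reticulum (ER) through a translocation channel, are folded there by chaperones and leave through the Golgi.

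Both lines carried B cell transcripts. All 10 B cell markers on the array had a tested probe set, and their summed scaled signal was 1780 in GM15510 at 2.5 cGy, 1720 in GM15510 at 1 cGy, 1770 in GM15036 at 2.5 cGy and 1900 in GM15036 at 1 cGy. None of the 10 passed the common change between the doses. None of the 6 monocyte markers was bright enough to be tested, and they summed to 28.9 in GM15510 at 2.5 cGy against 18.8 at 1 cGy, and to 34.6 in GM15036 at 2.5 cGy against 20.8 at 1 cGy. Of 7 T and NK cell markers only CD3E was tested, and the 7 summed to between 35.9 and 48.8 across the groups. Fibroblast markers summed to 75.5 in GM15510 at 2.5 cGy against 58.4 at 1 cGy, and to 74.1 in GM15036 at 2.5 cGy against 50 at 1 cGy. Of these, DCN, a matrix proteoglycan, differed by 1.23 on the log2 scale averaged over the lines, without passing (limma adjusted p = 0.0573). The part of these markers in the results was not tested. In bulk RNA, fewer cells of a type and less RNA per cell cannot be told apart.

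The arrays differed in technical quality along the same axis as the dose. Brightness (the unscaled signal's trimmed mean) was 23.7, 17.3 and 15 on the GM15510 arrays at 2.5 cGy, against 74.2, 57.3 and 76.6 at 1 cGy. In GM15036 it was 43.3, 50.8 and 55.4 at 2.5 cGy, against 57.9, 75 and 76 at 1 cGy. The arrays at 2.5 cGy were dimmer than every array at 1 cGy of their line. For ACTB, the 3-prime over 5-prime log2 ratio, a measure of RNA or amplification quality, averaged 4.29 ± 0.558 in GM15510 at 2.5 cGy and 3.75 ± 0.49 at 1 cGy (SD, n = 3 each). In GM15036 the same ratio averaged 5.51 ± 0.363 at 2.5 cGy and 4.48 ± 0.204 at 1 cGy (SD, n = 3 each), with no overlap. The GAPDH ratio did not repeat this: it averaged 2.27 ± 0.106 at 2.5 cGy against 2.47 ± 0.108 at 1 cGy in GM15510, and 2.66 ± 0.135 against 2.51 ± 0.171 in GM15036 (SD, n = 3 each). The 3 GM15510 arrays at 2.5 cGy correlated with each other at 0.899 to 0.917, below their correlation of 0.917 to 0.938 with the 1 cGy arrays of that line. Brightness and dose cannot be told apart within a line.

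**Figure D1:**
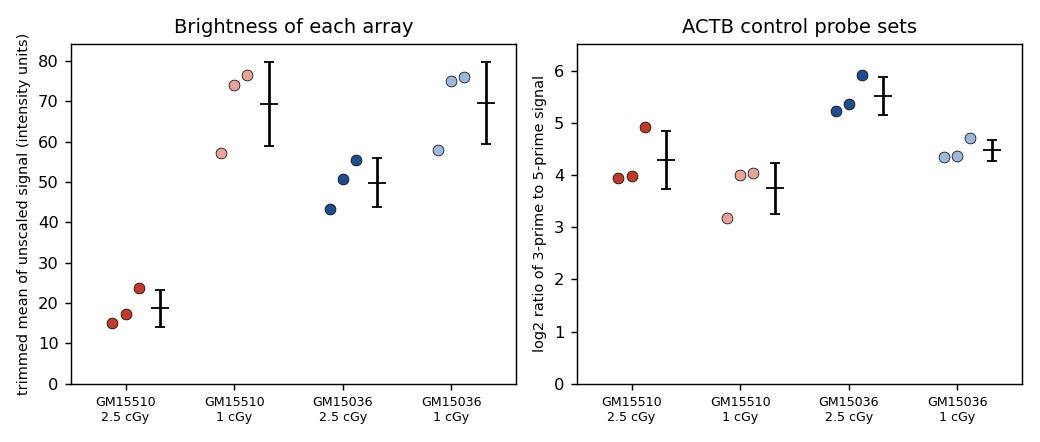
Brightness (left, unscaled trimmed mean, intensity units) and the ACTB 3-prime over 5-prime log2 ratio (right) for each of the 12 arrays. Points are arrays and the bar beside them is the mean with its SD (n = 3); GM15510 at 2.5 cGy sat between 15 and 23.7 in brightness, below every other array.

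Each array was scaled to a common trimmed mean, and 13329 probe sets bright enough to measure were tested on log2(signal + 4). In a fit with the line as a block, 272 probe sets passed, 2.04% of those tested, with 125 higher (0.938%) and 147 lower (1.1%) at 2.5 cGy than at 1 cGy (limma, Benjamini-Hochberg adjusted p under 0.05). An unadjusted p under 0.05 was reached by 2264 probe sets. All 272 had the same sign in both lines. The fit favours this, because it counts a difference between the lines as spread, so opposite signs seldom pass. The count leaned on the setting: it was 2 when the variance was not modelled on signal level, 7 with brightness as a covariate, 6 with the ACTB ratio as a covariate, and 80 without GM15510 1 cGy replicate 3. It was 122 and 130 without GM15510 1 cGy replicate 1 and replicate 2, and 129 and 155 without GM15510 2.5 cGy replicate 1 and replicate 2. How arrays were brought to a common level set the balance of directions, with 97 higher and 94 lower under quantile normalization, 57 and 1509 after centring the scaled arrays on their median, and 62 and 4587 after centring the unscaled arrays. Those centrings moved the median of all probe sets to -0.18 and -0.31. Under all 4 scalings, 5 probe sets passed as higher (0.0375%) and 80 as lower (0.6%), and the genes described first come from these. The highest and lowest of them were also chosen for no overlap between the doses in either line, so that separation is not further support.

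The signs in the lines matched for 52.8% of probe sets, and the changes in the lines correlated at 0.059 across probe sets (Spearman 0.0715). Signs matched for 51.3% under quantile normalization, 58.7% after centring the scaled arrays and 66.9% under median centring. The correlations there were 0.0229, 0.059 and 0.232. All of these describe probe sets that share arrays and are not independent. The change within each line came from 1 fit of all 12 arrays, with a shared estimate of the spread. GM15510 had 1200 probe sets past the threshold (9%), 508 higher (3.81%) and 692 lower (5.19%) at 2.5 cGy. GM15036 had 71 (0.533%), 11 higher (0.0825%) and 60 lower (0.45%) at 2.5 cGy. With the 6 arrays of each line fitted alone, the counts were 722 in GM15510 and 63 in GM15036. Without GM15036 1 cGy replicate b, none passed in GM15036 by limma, with 1184 at an unadjusted p under 0.05, and without any other array of that line the count was 1 to 35. Of the 1200, 708 had the same sign in GM15036 (59%), and of the 71, 39 had the same sign in GM15510 (54.9%). Only 25 passed in both lines, 2.08% of the GM15510 calls and 35.2% of the GM15036 calls. Of these, 17 had the same sign (0.128%), with 6 higher in both (0.045%) and 11 lower in both (0.0825%), and 8 had opposite signs (0.06%). Same and opposite signs numbered 12 and 5 under quantile normalization, and 42 and 2 after centring the scaled arrays. Under median centring, where 6133 of the 6241 probe sets that passed in GM15510 fell, they numbered 225 and 0. Counting only whether the arrays of the doses overlapped, 507 probe sets separated in both lines in the same direction (3.8%), 234 upwards (1.76%) and 273 downwards (2.05%), and 319 in opposite directions (2.39%). A test of the difference itself, the change in GM15510 minus the change in GM15036, passed for 344 probe sets (2.58%), 186 of them positive (1.4%) and 158 negative (1.19%). Of the 344, 159 were higher in GM15510 and lower in GM15036 at 2.5 cGy (1.19%), 137 the reverse (1.03%) and 48 had the same sign (0.36%). The median difference of all probe sets was -0.0367 after trimmed-mean scaling. It was -0.205 after centring the scaled arrays, with 56 positive and 331 negative calls. Under median centring it was -0.395, with 46 and 2608. The balance of signs under all 4 scalings therefore depends on these centrings. Under all 4 scalings the difference passed for 142 (1.07%), 16 positive (0.12%) and 126 negative (0.945%). Of these, 125 had opposite signs in the lines after trimmed-mean scaling (0.938%), and signs under the other scalings were not counted.

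**Figure D2:**
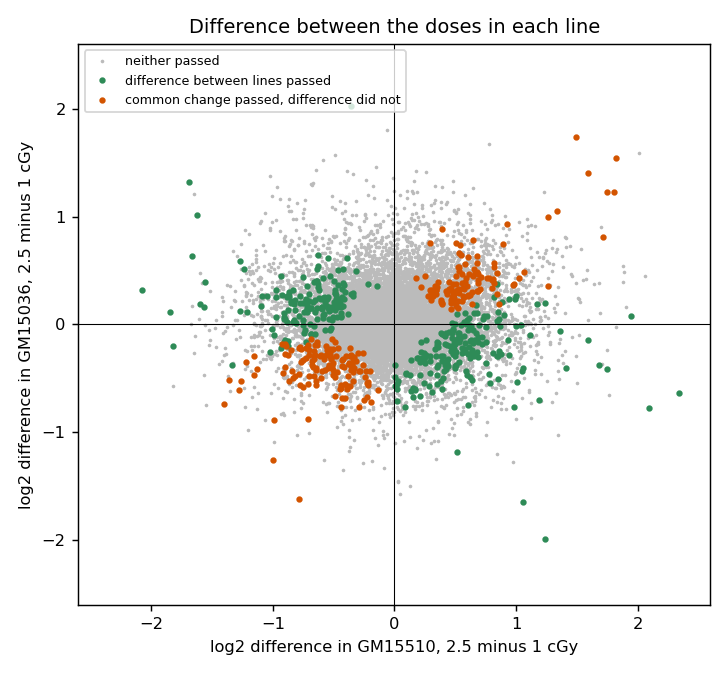
Log2 difference between 2.5 and 1 cGy in GM15510 (x) and GM15036 (y), 1 point per tested probe set (13329). Orange points passed the common change and not the difference between the lines. They lie in the quadrants where both lines share a sign, which that fit favours because it counts a line difference as spread. Green points (344) passed the test of the difference, 296 of them with opposite signs (2.22%).

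JCHAIN, the joining chain that links IgM and IgA into polymers in antibody-secreting cells, rose in both lines. Its scaled signal was 404, 427 and 298 in GM15510 at 2.5 cGy, against 149, 134 and 54.7 at 1 cGy. In GM15036 it was 918, 700 and 724 at 2.5 cGy, against 262, 274 and 496 at 1 cGy. The doses did not overlap in either line, as the choice of genes required, and the GM15036 level was above the GM15510 level at both doses. The average log2 change was 1.52 ± 0.21 (SE, limma adjusted p = 0.00204), with 1.81 in GM15510 and 1.23 in GM15036, and the p was at most 0.00931 with any 1 array left out. Before scaling, the GM15510 values overlapped, at 88 to 188 for 2.5 cGy and 82.3 to 218 for 1 cGy, so the direction there rests on the scaling. With brightness as a covariate the change was 1.15 (adjusted p = 0.229). Of the 15 plasma cell genes measured, JCHAIN was the only one to pass the common change, as a rise, beside 63 of 8105 genes that rose (0.777%) and 87 that fell (1.07%). The defining plasma cell genes SDC1 (adjusted p = 0.68), TNFRSF17 (0.941), MZB1 (0.58) and PRDM1 (0.792) did not pass.

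CYP27A1, the mitochondrial sterol 27-hydroxylase, rose by a similar amount from a low level. It read 14.4, 19.3 and 27.2 in GM15510 at 2.5 cGy, against 4.28, 3.33 and 4.05 at 1 cGy, and 14.3, 20.2 and 17.3 in GM15036 at 2.5 cGy, against 7.5, 4.21 and 1.37 at 1 cGy. Every array at 2.5 cGy was above every array at 1 cGy. The average log2 change was 1.5 ± 0.29 (SE, limma adjusted p = 0.0125). The probe set is dim, beside a mean scaled signal of 8.59 at the limit of what was tested, and without the 2 dimmest arrays (GM15510 2.5 cGy replicates 2 and 3) its adjusted p was 0.0605. WHR1 (1.68 ± 0.35, adjusted p = 0.0171) and EPS8L3 (1.49 ± 0.31, adjusted p = 0.0192) completed the named genes that rose. Both are dim, and neither passed without those 2 arrays. EPS8L3 also missed without GM15510 1 cGy replicate 3 or 2.5 cGy replicate 1 (adjusted p up to 0.057). The other WHR1 probe set differed by 0.50 without passing (adjusted p = 0.147).

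The smallest adjusted p among the falls described here belonged to ATP10D, a phospholipid flippase of the P4-ATPase family that moves lipids between membrane leaflets. Its scaled signal was 195, 192 and 182 in GM15510 at 2.5 cGy, against 307, 306 and 322 at 1 cGy. In GM15036 it was 60.2, 80.3 and 75.9 at 2.5 cGy, against 136, 155 and 117 at 1 cGy. The groups were far apart in both lines relative to their spread. It fell by 0.79 ± 0.09 on the log2 scale (SE, limma adjusted p = 9.26e-04) and passed in each line, at 0.00155 in GM15510 and 0.0183 in GM15036. With the ACTB ratio as a covariate it still passed (adjusted p = 0.0478), and with brightness as a covariate the change was -0.84 with an adjusted p of 0.0502.

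RCN2, a calcium-binding protein of the ER lumen, read 87.8, 128 and 93.8 in GM15510 at 2.5 cGy, against 199, 204 and 166 at 1 cGy, and 123, 98.3 and 93.4 in GM15036 at 2.5 cGy, against 150, 145 and 161 at 1 cGy. RCN2 fell by 0.70 ± 0.11 (SE, limma adjusted p = 0.00412), and its other probe set fell by 0.54 (adjusted p = 0.0392), mostly through GM15510. That probe set gave -0.91 in GM15510 and -0.16 in GM15036 (limma adjusted p = 0.75 in GM15036). Its difference between the lines passed (-0.75, limma adjusted p = 0.0354). ITPR1, the inositol trisphosphate receptor that releases ER calcium after B cell receptor signalling, read 82.7, 74 and 60 in GM15510 at 2.5 cGy, against 134, 118 and 126 at 1 cGy. In GM15036 it read 82.6, 74 and 71.5 at 2.5 cGy, against 123, 115 and 105 at 1 cGy. The doses did not overlap in either line, as the choice of genes required. ITPR1 fell by 0.67 ± 0.10 (SE, limma adjusted p = 0.00333), although its other 2 probe sets gave 0.17 and -0.06 without passing. IER3IP1, a small ER and Golgi membrane protein, fell by 0.64 ± 0.11 (adjusted p = 0.00416), with means of 90.8 ± 9.76 at 2.5 cGy and 172 ± 12.6 at 1 cGy in GM15510 and of 108 ± 8.72 and 143 ± 12.8 in GM15036 (SD, n = 3 each). TRAM1, which helps nascent chains enter the translocation channel, fell by 0.94 ± 0.17 on 1 probe set (adjusted p = 0.00872), but its other 2 probe sets gave -0.06 and 0.03. With brightness as a covariate the changes were -0.59 for RCN2, -0.48 for ITPR1, -0.35 for IER3IP1 and -0.25 for TRAM1, and none passed (adjusted p between 0.276 and 0.786). PDIA3, a disulfide isomerase that folds glycoproteins in the ER, fell by 0.36 ± 0.07 (adjusted p = 0.0121) and lost the call without the 2 dimmest arrays and with brightness as a covariate (-0.20).

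Of 44 ER and Golgi transport genes, 1 rose (TMED2) and 2 fell in the common test, beside 0.777% and 1.07% of all 8105 genes, with a median of -0.10 beside 0.004. TMED2, a cargo receptor of early secretory vesicles, turned to -0.13 under median centring, and its other probe set gave -0.38. Of 35 ER stress and unfolded protein response genes, only PDIA3 fell and none rose, beside the same shares. LRIG1, a membrane protein that restrains growth factor receptors, also fell, by 0.89 ± 0.16 (adjusted p = 0.00658), as did CCT5, a subunit of the cytosolic chaperonin, by 0.53 ± 0.09 (adjusted p = 0.00412). Both kept the call without each of the 12 arrays, but with brightness as a covariate LRIG1 gave -0.40 (adjusted p = 0.61) and CCT5 -0.37 (adjusted p = 0.342). ANKRD28, PPP3R1, CALU and ME2 were among the 10 largest falls under the 4 scalings too, and each lost the call without 1 or more arrays. The other PPP3R1 probe set gave 0.13, and those of CALU gave -0.29, 0.09 and -0.14, none passing. Other ME2 probe sets gave -0.38, which passed (limma adjusted p = 0.0462), and -0.16, which did not. The adjusted p of ANKRD28 reached 0.103, with the call kept without only 2 of the 12 arrays.

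**Figure D3:**
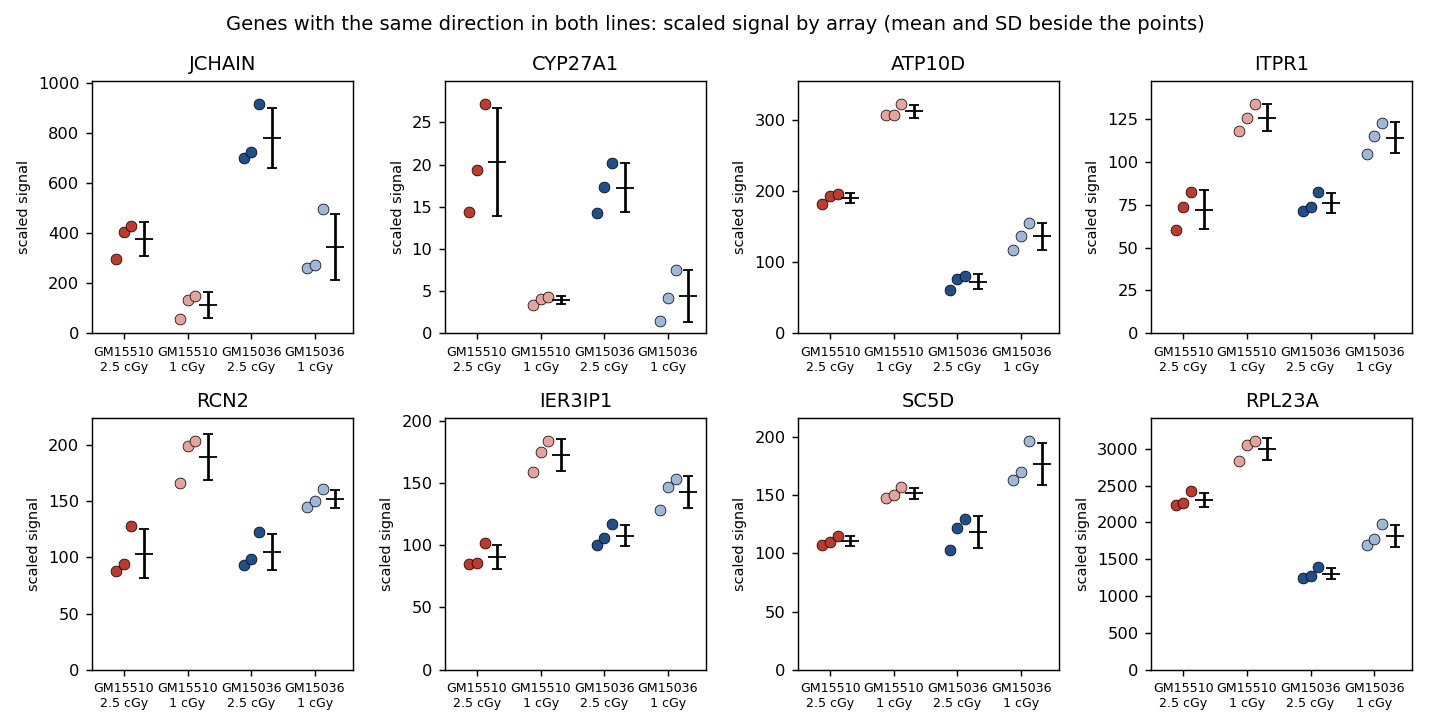
Scaled signal (y, intensity units, from 0) on each array for 8 genes with the same direction in both lines, by line and dose (x). Points are arrays and the bar is the mean with its SD (n = 3). The 2.5 cGy points lie wholly above the 1 cGy points of the same line for JCHAIN and CYP27A1 and wholly below them for ATP10D, ITPR1, RCN2, IER3IP1, SC5D and RPL23A. For JCHAIN, CYP27A1, ATP10D, ITPR1, RCN2 and IER3IP1 the choice of genes required this.

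Sterol synthesis held both kinds of behaviour. SQLE, the squalene epoxidase that controls entry into the sterol branch, fell by 0.53 ± 0.09 (limma adjusted p = 0.00416), with means of 145 ± 12.8 at 2.5 cGy against 235 ± 25.9 at 1 cGy in GM15510 and 177 ± 0.911 against 230 ± 12.3 in GM15036 (SD, n = 3 each). A second SQLE probe set gave 0.44 without passing (adjusted p = 0.209), and with brightness as a covariate the first gave -0.29 (adjusted p = 0.468). SC5D, the lathosterol desaturase near the end of the pathway, read 110, 107 and 115 in GM15510 at 2.5 cGy, against 150, 157 and 148 at 1 cGy. The GM15036 values were 103, 122 and 130 at 2.5 cGy, against 163, 170 and 197 at 1 cGy. It fell by 0.50 ± 0.09 (adjusted p = 0.00609) and passed in each line. No other of the 16 sterol genes measured passed the common change, beside 0.777% of all genes that rose and 1.07% that fell. In GM15510, 3 of the 16 rose and 2 fell, beside 3.41% and 5.32%, and 3 passed the difference upwards and none downwards, beside 1.33% and 1.26%. After centring the scaled arrays none of the 16 passed the difference, beside 34 upwards and 214 downwards of all 8105 genes. Under median centring none passed it upwards and 4 downwards, beside 28 and 1668 of all genes. EBP, the sterol isomerase that acts before SC5D, had opposite signs in the lines. It read 196, 226 and 196 in GM15510 at 2.5 cGy, against 108, 97.9 and 109 at 1 cGy, and 82, 80.4 and 77.6 in GM15036 at 2.5 cGy, against 101, 105 and 89.4 at 1 cGy. The EBP change was 0.94 in GM15510 (adjusted p = 9.04e-05) and -0.28 in GM15036 (adjusted p = 0.383), a difference of 1.23 ± 0.16 (SE, limma adjusted p = 7.96e-04). Before scaling, EBP was lower at 2.5 cGy in GM15510 too, at 57.8 to 91.1 against 110 to 164 at 1 cGy, so the direction there rests on the scaling. A second EBP probe set passed in the same direction (0.76, adjusted p = 0.0391) and the third gave 0.46.

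Promoters are shown for genes of both patterns, to set genes that moved alike in the lines beside genes that did not. Each line holds the 100 bases before the annotated start, 5' to 3' on the gene's strand, from the RefSeq table of GRCh38.p14. Capitals mark matches, on either strand, to CCAAT boxes. They also mark matches, on either strand, to the GC box GGGCGG. In all, 5 motifs were searched. JCHAIN and CYP27A1 were higher in both lines, ATP10D and SC5D lower in both, and VAMP8 and EBP had opposite signs.
JCHAIN (chr4:70666509-70666608, minus strand): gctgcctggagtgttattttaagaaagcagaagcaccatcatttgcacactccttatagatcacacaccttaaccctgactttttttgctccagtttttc
CYP27A1 (chr2:218782047-218782146, plus strand): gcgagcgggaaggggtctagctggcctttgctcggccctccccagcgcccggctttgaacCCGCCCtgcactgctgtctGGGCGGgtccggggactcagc
ATP10D (chr4:47485175-47485274, plus strand): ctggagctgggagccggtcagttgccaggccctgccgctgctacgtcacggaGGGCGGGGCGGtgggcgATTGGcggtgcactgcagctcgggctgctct
SC5D (chr11:121292671-121292770, plus strand): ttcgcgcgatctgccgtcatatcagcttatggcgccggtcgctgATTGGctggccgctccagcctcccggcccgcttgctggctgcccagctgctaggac
VAMP8 (chr2:85577486-85577585, plus strand): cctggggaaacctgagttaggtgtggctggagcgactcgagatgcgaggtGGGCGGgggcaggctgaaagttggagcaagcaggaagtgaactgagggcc
EBP (chrX:48521708-48521807, plus strand): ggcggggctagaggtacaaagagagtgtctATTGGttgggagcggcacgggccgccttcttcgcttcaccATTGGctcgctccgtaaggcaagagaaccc
Passing under all 4 scalings without overlap in either line, 56 probe sets fell (0.42%) and 4 rose (0.03%). Of the 54 genes of the 56, 44 had a promoter in the table. Within 250 bases upstream, CCAAT was found in 23 of them (52.3%), beside 36.4% of the 6688 promoters of tested genes and 33% of all 27305 promoters. GGGCGG was found in 63.6% of them, beside 65.3% of tested genes. The TATA box TATAAA was found in 2.27% beside 5.73%. The E-box CACGTG was found in 9.09% beside 9.03%, and the ETS motif CCGGAAG in 15.9% beside 15.8%. None of the 5 motifs contains another, and no test was made: the shares describe letters in these windows. The 4 genes that rose held none of the motifs in that window apart from GGGCGG in CYP27A1.

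VAMP8, a vesicle SNARE that drives fusion of late endosomes, lysosomes and secretory granules, had the smallest adjusted p of the difference between the lines, shared with RPL35A. VAMP8 read 194, 237 and 221 in GM15510 at 2.5 cGy, against 111, 117 and 127 at 1 cGy. GM15036 gave 112, 110 and 116 at 2.5 cGy, against 168, 149 and 167 at 1 cGy. The doses separated fully in each line after scaling, in opposite directions. Before scaling the GM15510 values were 65.3 to 90 at 2.5 cGy against 132 to 192 at 1 cGy, so the rise there rests on the scaling. The unscaled values of RPL35A, MS4A1, PSMB4 and HLA-DRA, described below, were likewise lower on every GM15510 array at 2.5 cGy than at 1 cGy. VAMP8 rose by 0.85 in GM15510 (adjusted p = 1.41e-04) and fell by 0.51 in GM15036 (adjusted p = 0.0441), a difference of 1.36 ± 0.15 (SE, limma adjusted p = 2.78e-04) that stayed positive and past the threshold under all 4 scalings and without each of the 12 arrays. With brightness as a covariate the difference was 1.12, with an adjusted p of 0.509. The other 7 probe sets that passed in each line with opposite signs belonged to RPL35A, MS4A1, PPIB, ARL6IP5, ATP6V0E1, HSD17B12 and SLC38A1, and each of them was higher in GM15510 and lower in GM15036 at 2.5 cGy. The 8 genes are given because all 8 lay one way, a choice made after their values were seen. After centring the scaled arrays, 2 probe sets passed in each line with opposite signs, and under median centring none did.

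Several B cell surface genes differed between the lines in the same way. MS4A1, which encodes CD20, read 325, 362 and 357 in GM15510 at 2.5 cGy, against 252, 242 and 242 at 1 cGy, and 234, 232 and 236 in GM15036 at 2.5 cGy, against 319, 306 and 295 at 1 cGy. The difference was 0.88 ± 0.12 (SE, limma adjusted p = 9.62e-04), and its second probe set passed too (0.82, adjusted p = 0.00608). HLA-DRA, the alpha chain of the class II molecule HLA-DR that presents antigen to T cells, read 232, 252 and 274 in GM15510 at 2.5 cGy, against 190, 190 and 211 at 1 cGy. In GM15036 it read 117, 134 and 146 at 2.5 cGy, against 181, 180 and 165 at 1 cGy. The HLA-DRA difference was 0.75 ± 0.15 (adjusted p = 0.0126), with the second probe set at 0.85 (adjusted p = 0.0136). CD83, an activation marker and NF-kB target, differed by 0.64 ± 0.12 (adjusted p = 0.00786). Under median centring MS4A1, HLA-DRA and CD83 kept the direction without passing. Of 29 B cell identity genes, 3 passed the difference upwards and none downwards, beside 1.33% and 1.26% of all genes, and only HLA-DPA1 passed the common change (0.36, adjusted p = 0.0462), turning to -0.12 under median centring, with its other 2 probe sets at -0.19 and -0.06.

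**Figure D4:**
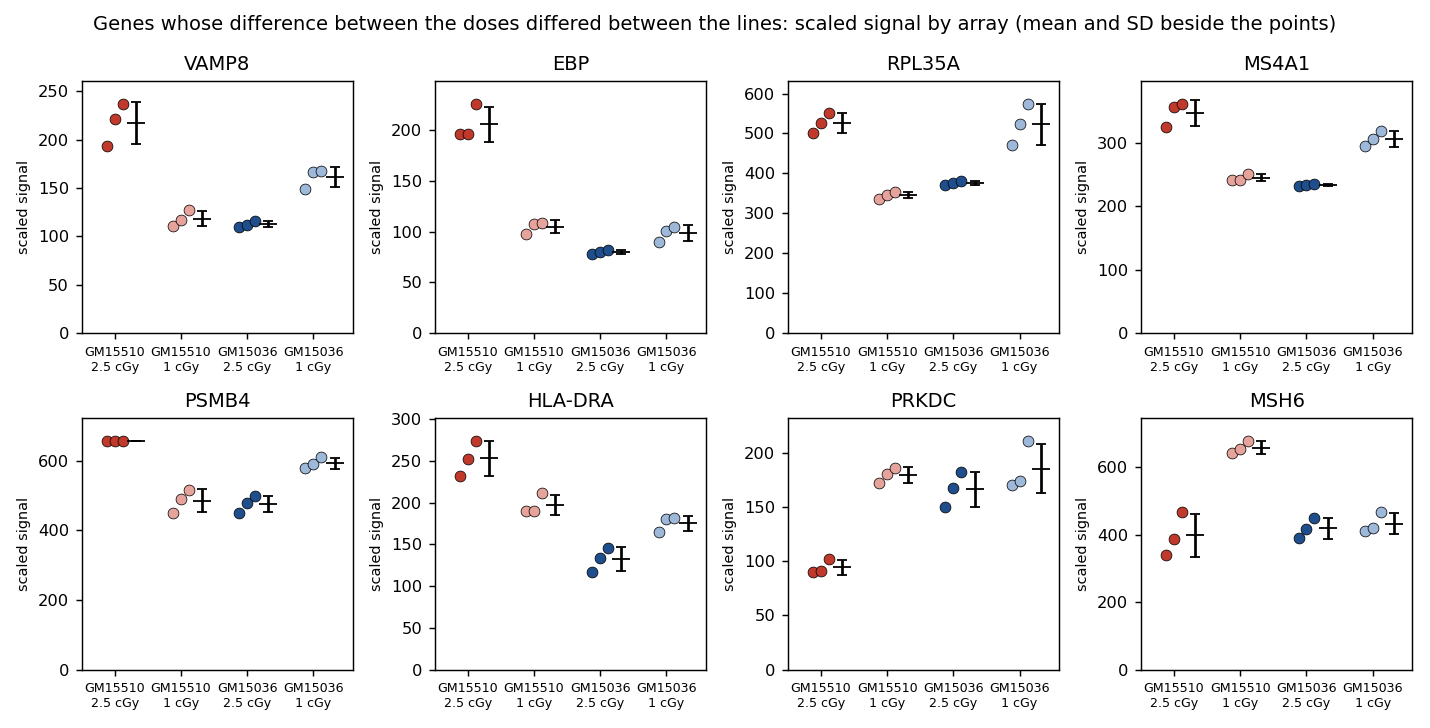
Scaled signal (y, intensity units, from 0) on each array for 8 genes whose change differed between the lines, by line and dose (x). Points are arrays and the bar is the mean with its SD (n = 3); in VAMP8, EBP, RPL35A, MS4A1, PSMB4 and HLA-DRA the 2.5 cGy points lie above those at 1 cGy in GM15510 and below them in GM15036, and in PRKDC and MSH6 only the GM15510 doses separate.

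Ribosomal protein genes, which build the cytosolic ribosome, also split by line. Of 53 measured, 14 rose and 6 fell in GM15510, beside 3.41% and 5.32% of all genes, none rose and 2 fell in GM15036, beside 0.0864% and 0.457%, and 11 passed the difference upwards against 1 downwards, beside 1.33% and 1.26%. Under quantile normalization 7 passed the difference upwards and 3 downwards, beside 98 and 95 of all 8105 genes. After centring the scaled arrays 2 and 2 did, beside 34 and 214. Under median centring 1 and 9 did, beside 28 and 1668. The median difference between the lines was 0.24, beside -0.04 over all genes. It was 0.18 under quantile normalization (all genes -0.064) and 0.07 after centring the scaled arrays (all genes -0.21). Under median centring of unscaled arrays it was -0.34 (all genes -0.4). The sign of the list's median thus depends on the scaling, while that median lay above the median of all genes under each. RPL35A read 501, 552 and 525 in GM15510 at 2.5 cGy, against 354, 337 and 347 at 1 cGy, and 371, 382 and 377 in GM15036 at 2.5 cGy, against 574, 524 and 472 at 1 cGy. The difference was 1.07 ± 0.12 (SE, limma adjusted p = 2.78e-04) and passed under all 4 scalings, while its second probe set gave 0.47 without passing. RPL23A was lower at 2.5 cGy in both lines. It read 2240, 2420 and 2260 in GM15510 at 2.5 cGy, against 2830, 3110 and 3050 at 1 cGy, and 1270, 1250 and 1390 in GM15036 at 2.5 cGy, against 1980, 1770 and 1690 at 1 cGy. RPL23A fell by 0.43 ± 0.07 (adjusted p = 0.00412) and passed in each line. RPL3 rose in the common test by 0.63 ± 0.11 (adjusted p = 0.00783), mostly through a change of 1.00 in GM15510 against 0.26 in GM15036, and it passed neither under median centring (0.15) nor without the 2 dimmest arrays (adjusted p = 0.0549) nor with brightness as a covariate (0.10). RPS27 fell by 0.45 ± 0.09 (adjusted p = 0.0152), and missed without GM15510 1 cGy replicate 3 (adjusted p = 0.0504) and with brightness as a covariate (-0.12). Ribosomal protein genes have many processed pseudogenes, so probe sets of the _x_at kind may take signal from near-identical copies.

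Of 47 splicing factors, 7 rose and none fell in the common test, beside 0.777% and 1.07% of all genes, but the direction depends on the scaling: 5 rose and none fell under quantile normalization, 1 rose and 9 fell after centring the scaled arrays, and none rose and 23 fell under median centring. Of all 8105 genes, 50 rose and 55 fell under quantile normalization. After centring the scaled arrays 33 rose and 970 fell, and under median centring 36 rose and 2890 fell. The 7 splicing factors that rose after trimmed-mean scaling were HNRNPU (0.43 ± 0.07, limma adjusted p = 0.00416), SRRM1, HNRNPA2B1, HNRNPH1, HNRNPH3, PTBP1 and NKTR. The changes of the last 6 lay between 0.30 and 0.38. HNRNPU, which organises nuclear RNA and chromatin, averaged 903 ± 79.4 at 2.5 cGy and 624 ± 30.9 at 1 cGy in GM15510, and 1250 ± 72.4 and 993 ± 50.4 in GM15036 (SD, n = 3 each). Under median centring its change was -0.05 and that of SRRM1 -0.11, and the second HNRNPU probe set gave 0.18 without passing. NPM1, the nucleolar chaperone of ribosome assembly, averaged 4540 ± 94.4 at 2.5 cGy and 3060 ± 318 at 1 cGy in GM15510, and 4620 ± 225 and 3680 ± 32.8 in GM15036 (SD, n = 3 each). It rose by 0.45 ± 0.07 (adjusted p = 0.00416), turned to -0.03 under median centring, and had 2 other probe sets at 0.11 and 0.18 without passing. Probe sets of the _x_at kind, whose probes can bind several transcripts, made up 57.6% of the 125 that rose, against 7.48% of the 147 that fell and 12.4% of all tested. In GM15510, 12 splicing factors rose and 8 fell, beside 3.41% and 5.32% of all genes, and the list's median was -0.05, beside -0.01. Under quantile normalization 7 rose and 7 fell there, beside 242 and 361 of all 8105 genes. After centring the scaled arrays 2 rose and 21 fell, beside 83 and 1701. Under median centring none rose and 40 fell, beside 70 and 3898.

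PSMB4, a proteasome core subunit, read 657, 657 and 656 in GM15510 at 2.5 cGy, against 449, 516 and 489 at 1 cGy. GM15036 gave 477, 450 and 497 at 2.5 cGy, against 589, 609 and 579 at 1 cGy. The difference of 0.76 ± 0.11 (SE, limma adjusted p = 0.00174) was matched by a second probe set at 0.80 (adjusted p = 0.00593). NDUFA13, a subunit of respiratory complex I, differed by 1.54 ± 0.24 (adjusted p = 0.00257), with 1.01 in GM15510 and -0.54 in GM15036. ATP5PB, a stator subunit of the mitochondrial ATP synthase, differed by 0.52 ± 0.10 (adjusted p = 0.00999), and turned to -0.07 under median centring. Of 34 proteasome genes 2 passed the difference (both upwards), of 61 oxidative phosphorylation genes 1 did (ATP5PB, upwards), and of 44 G2/M genes and 39 G1/S and replication genes none did, beside 1.33% upwards and 1.26% downwards over all genes. The oxidative phosphorylation list did not hold NDUFA13.

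The genes that radiation is best known to induce gave no call common to the lines. None of 28 p53 targets passed the common change, beside 0.777% of all genes that rose and 1.07% that fell. At an unadjusted p under 0.05 there were 4 of the 28, beside 1387 of all 8105 genes, and the median was 0.07, beside 0.004. In GM15510, 4 p53 targets rose and none fell, beside 3.41% and 5.32%. After centring the scaled arrays none rose and 7 fell, beside 83 and 1701 of all 8105 genes. Under median centring none rose and 13 fell, beside 70 and 3898 of all genes, so these falls came with falls across all genes. CDKN1A, the p21 inhibitor of cyclin-dependent kinases, read 124, 176 and 135 in GM15510 at 2.5 cGy, against 123, 164 and 151 at 1 cGy, and 197, 164 and 177 in GM15036 at 2.5 cGy, against 202, 184 and 150 at 1 cGy. The doses overlapped in both lines, and its average log2 difference was -0.001 ± 0.11 (SE, limma adjusted p = 0.997). MDM2, the ligase that degrades p53, gave 0.11 ± 0.16 (adjusted p = 0.789), GADD45A 0.31 ± 0.18 (0.387), XPC 0.02 ± 0.18 (0.97), PCNA -0.12 ± 0.10 (0.58), BAX 0.19 ± 0.11 (0.368) and PPM1D -0.27 ± 0.13 (0.295). A second BAX probe set gave 0.30 in the common test without passing. It rose by 0.86 in GM15510 (limma adjusted p = 0.0113) and gave -0.25 in GM15036. Its difference between the lines passed (1.1, limma adjusted p = 0.0434), though not under all 4 scalings. DDB2, a damage-recognition protein and p53 target, read 105, 92.6 and 89.6 in GM15510 at 2.5 cGy, against 62.2, 59 and 58.2 at 1 cGy. In GM15036 it read 120, 123 and 76.9 at 2.5 cGy, against 138, 120 and 110 at 1 cGy. DDB2 rose by 0.64 in GM15510 (adjusted p = 0.0174) and gave -0.22 in GM15036 (adjusted p = 0.711), and the test of the difference did not pass (adjusted p = 0.05). Before scaling, DDB2 was lower on every GM15510 array at 2.5 cGy than at 1 cGy, so the rise there rests on the scaling. BTG2 and FDXR were not analysed here. A p that misses the threshold does not show equal levels at the doses.

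DNA repair genes that passed in GM15510 were all lower at 2.5 cGy. Of 40 measured, none rose and 5 fell in GM15510, beside 3.41% and 5.32% of all genes, none passed in GM15036, and 3 passed the difference downwards and none upwards, beside 1.26% and 1.33%. Under quantile normalization 2 fell in GM15510, beside 361 of all 8105 genes. The difference there passed for 2 downwards and 1 upwards, beside 95 and 98 of all genes. After centring the scaled arrays 14 fell in GM15510 and 3 passed the difference downwards, beside 1701 and 214 of all genes. Under median centring 33 and 17 did, beside 3898 and 1668, so the number of falls depends on the scaling. PRKDC, the catalytic subunit of DNA-PK, read 102, 90 and 90.8 in GM15510 at 2.5 cGy, against 186, 180 and 172 at 1 cGy. In GM15036 it read 150, 167 and 182 at 2.5 cGy, against 170, 174 and 211 at 1 cGy. PRKDC fell by 0.90 in GM15510 (adjusted p = 1.28e-04), with -0.15 in GM15036 (adjusted p = 0.729) and a difference of -0.76 ± 0.16 (SE, limma adjusted p = 0.0177). That difference missed without GM15036 2.5 cGy replicate c or GM15510 1 cGy replicate 1 (adjusted p up to 0.061), and the 2 other probe sets gave -0.60 and 0.93 without passing. With brightness as a covariate the difference was -0.33. PRKDC also passed the common change as a fall, with the call kept without only 4 of the 12 arrays (adjusted p up to 0.0983). MSH6, a mismatch recognition protein, averaged 398 ± 63.8 at 2.5 cGy and 659 ± 18.8 at 1 cGy in GM15510, and 419 ± 30.1 and 433 ± 30.2 in GM15036 (SD, n = 3 each). The MSH6 difference was -0.68 ± 0.15 (adjusted p = 0.0181), and it missed without GM15036 2.5 cGy replicate c (adjusted p = 0.0566). Brightness moved with these falls, at 18.7 ± 4.48 in GM15510 at 2.5 cGy against 69.4 ± 10.5 at 1 cGy (SD, n = 3 each). With brightness as a covariate, no probe set passed in GM15510 by limma, with 1014 at an unadjusted p under 0.05.

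**Figure D5:**
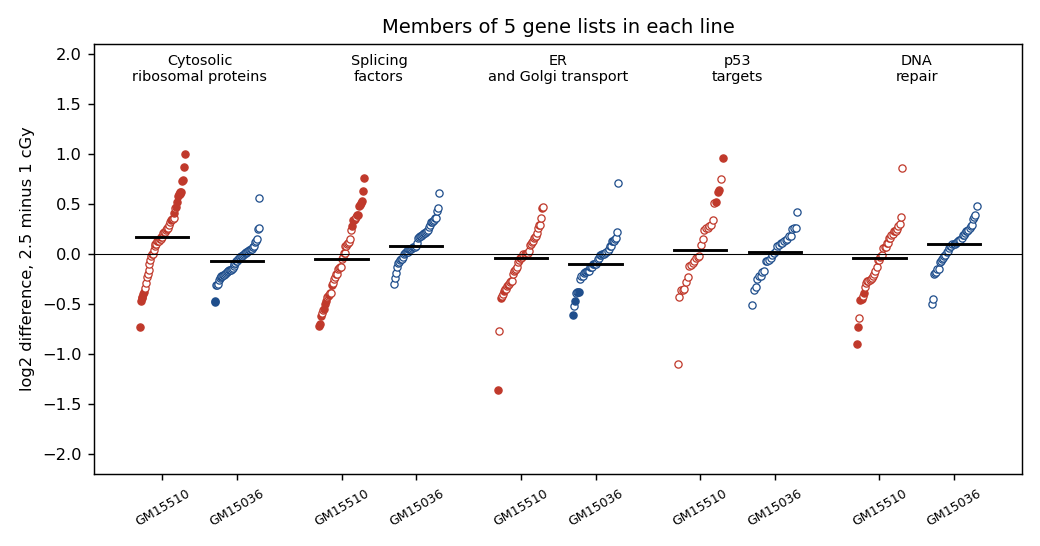
Log2 difference between 2.5 and 1 cGy (y) of each member of 5 gene lists, in GM15510 (red) and GM15036 (blue). Filled points passed in that line (limma adjusted p under 0.05), open points did not, and the black bar is the list's median; among splicing factors 20 points are filled in GM15510 and none in GM15036, while for p53 targets only 4 are, all in GM15510.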

How the data were processed

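Affymetrix arrays with 22283 probe sets measured RNA of the 12 samples, prepared with 3-prime in vitro transcription labelling per the labels. The deposited values are linear signal intensity, made with MAS5 per the submitters' processing notes (version and target level not given in the sources used here), and arrays were not on a common level. Each array was scaled so that its 2 to 98 percent trimmed mean equalled the mean over 30 arrays (50.9). The deposited intensity was then taken as log2(scaled signal + 4), and fold changes are on that scale, which understates the change of low genes. After removing 68 controls and the dimmest 40 percent (mean log2 value under 3.65), 13329 probe sets were tested with limma 3.58.1 in R 4.3.3: line plus dose for the common change, and a mean per group for each line and for the difference between lines, with eBayes on an intensity trend, two-sided, Benjamini-Hochberg adjusted. Steps were tested on simulated data. Of the probe sets, 19071 had 1 symbol, 1043 several and 2169 none, and 19059 matched RefSeq by gene ID.

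The number of arrays limits the precision. Genes described under the common change are the up to 10 highest and 10 lowest that passed under 4 scalings without overlap in either line. Those under the difference were chosen by rank likewise, having passed under 4 scalings with opposite signs in the lines after trimmed-mean scaling. Up to 4 passing members of each list and 10 radiation genes follow. Of 49 difference genes, 26 that passed without at least 10 of the 12 arrays are printed, a narrowing chosen after values were seen. Members and lists were chosen with earlier results of these data known. Alternatives were quantile normalization, median centring, centring after scaling, other pseudocounts and filters, other eBayes settings, array weights, all 30 arrays, brightness or ACTB ratio as a covariate, a replicate block and leaving out arrays. No arrays held identical values.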

Additional observations from a re-analysis of the deposited data

Results flagged for a closer look

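Genes whose difference between 2.5 and 1 cGy was not the same in the lines are given with the value of GM15510 minus GM15036 on the log2 scale, each past the test of that difference (limma adjusted p under 0.05). There were 344 such probe sets. Brightness was lowest in GM15510 at 2.5 cGy, and with it as a covariate none of them passed, with 1025 probe sets at an unadjusted p under 0.05.

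VAMP8 (1.36), EBP (1.23), RPL35A (1.07), MS4A1 (0.883) and PSMB4 (0.755) had positive differences and were described above. HLA-DRA (0.75), CD83 (0.635), NDUFA13 (1.54), ATP5PB (0.519) and RPL3 (0.738) also had positive differences. SSR2 (0.679), a subunit of the complex beside the ER translocation channel, TMED5 (0.779), a cargo adaptor of early secretory vesicles, and HSPA5 (0.567), the main ER chaperone, were positive too. GGCX (1.36), the vitamin K-dependent carboxylase of the ER, and U2AF1 (0.688), which recognises the 3-prime splice site, were positive. SPN (2.06), the leukocyte sialoglycoprotein CD43, and POGZ (1.82), a chromatin zinc finger protein, had larger differences. The SPN and POGZ values came from probe sets of the _x_at kind, whose probes can bind several transcripts. No other probe set of GGCX, SPN, POGZ or TMED5 passed, and their signs were mixed: GGCX gave -0.27, -0.45 and 0.59, SPN -1.48 and 0.11, POGZ 0.002 and TMED5 -0.09.

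MRPL35 (3.23), a mitochondrial ribosomal protein, MEGF6 (2.98) and CMKLR2 (2.87), a chemerin receptor, had the largest positive values of those given here and were dim. The MRPL35 and CMKLR2 probe sets were also of the _x_at kind. WNT2 (-3), a secreted WNT ligand, and MYL10 (-2.38), a myosin light chain, had the largest negative values of those given here and were dim, and the other MYL10 probe set gave -0.34 without passing. PRKDC (-0.755), MSH6 (-0.684), RPS27 (-0.563) and CLK1 (-1.08), a kinase of splicing factors, were negative as well. MRPL35 missed the threshold without GM15036 1 cGy replicate a (adjusted p = 0.0544), MYL10 without GM15036 2.5 cGy replicate b (0.0514) and SSR2 without GM15510 1 cGy replicate 1 (0.0588).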

How the results depend on the processing

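The common change, 272 probe sets, became 4649 under median centring, 1566 with centring after scaling, 155 with no filter, 2 without the eBayes trend, 682 with all 30 arrays, 7 with brightness and 6 with the ACTB ratio as a covariate, 692 with 4 group means, and 144 without the 2 dimmest arrays, an alternative chosen after seeing the data. In GM15510, 1200 became 6241 under median centring, 2827 with centring after scaling, 554 without the trend, 753 with array weights, 0 by limma with brightness (1014 at an unadjusted p under 0.05), 722 with that line's arrays alone and 731 without the 2 dimmest. In GM15036, 71 became 258 under median centring, 36 with no filter, 0 without the trend (1196 unadjusted), 261 with array weights, 2 with brightness, 0 with the ACTB ratio (864 unadjusted) and 134 without the 2 dimmest. The difference, 344, became 2654 under median centring, 19 without the trend and 0 with brightness (1025 unadjusted). Leaving out 1 array gave 80 to 316 for the common change, 610 to 1358 in GM15510, 0 to 113 in GM15036 and 165 to 438 for the difference, which was 165 without GM15510 1 cGy replicate 1 and 192 and 212 without GM15036 2.5 cGy replicates b and c. Same-numbered arrays did not pair (correlations of deviations 0.00031 to 0.037), and with the replicate block the counts were 108, 1229, 86 and 358 for the common change, GM15510, GM15036 and the difference. Signs turned for PRKDC's common change with brightness (0.0377) and, under median centring, for the common changes of GTSE1 (-0.0885), PGAM1 (-0.116), NPM1 (-0.0337), HNRNPU (-0.0481), SRRM1 (-0.11), TMED2 (-0.132) and HLA-DPA1 (-0.117) and the differences of HSPA5 (-0.0218), PRDX1 (-0.105), ATP5PB (-0.0698) and PSMB7 (-0.0426). Of 86 calls for the genes chosen by rule, 39 passed without each of the 12 arrays, and with brightness as a covariate none of them passed. The causes were not tested. Dim arrays limit the precision in GM15510 at 2.5 cGy, where the median SD between replicates was 0.3 on the log2 scale.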
